A study of Rattus norvegicus with 12 samples.

Results

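Hacd1 and Arl5b lie near each other on rat chromosome 17, with other genes between them. Each had a differential DNA methylation region (DMR) between the F3 generation control and vinclozolin lineages in ventral prostate epithelial cells. The loci were followed through 826 windows of 100 bp, out of 27820300 windows in the genome. These were all windows of chromosome 17 with starts from 81162401 to 81203601 for Hacd1 (413 windows) and from 82064601 to 82105801 for Arl5b (413 windows), in the Rnor 6.0 build. The ranges hold the epithelial DMR of each gene with roughly 20000 bp on each side. The loci were thus chosen by the lineage difference in epithelial cells, and every epithelial lineage value at them is a description with no test. The 860900 bp between the ranges (8609 windows) were described as well. The gene names are the ones the study assigned to these DMRs, and whether a window lies in an exon, an intron or outside the gene was not determined, since the gene table used here is of another build.

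Arl5b encodes a small GTPase of the ADP-ribosylation factor-like family that sits on the trans-Golgi network and acts in the transport of cargo from endosomes to the Golgi. Hacd1, formerly named Ptpla, encodes a 3-hydroxyacyl-CoA dehydratase of the endoplasmic reticulum, an enzyme of the elongation cycle that makes very long chain fatty acids. In methylated DNA immunoprecipitation (MeDIP) an antibody against 5-methylcytosine pulls down methylated fragments, so that the read number in a window rises with both the methylation and the number of CpG sites there. It is an enrichment and not a percent of methylated molecules.

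Gestating F0 females of the outbred Hsd:Sprague Dawley SD strain were given vinclozolin, an antiandrogenic fungicide, at 100 mg/kg body weight by intraperitoneal injection each day from gestation day 8 to 14, and control females were given the DMSO vehicle. Their F3 descendants were never treated, and ventral prostates were taken from them at 19 to 21 days of age. There were 12 pools, 3 for each lineage and cell type, with the tissue of 6 to 9 control or 9 to 11 vinclozolin lineage rats combined in a pool and then divided into epithelial and stromal cells by settling and slow centrifugation. The replicate is therefore a pool, and the epithelial and stromal pools of a lineage came from the same rats. The files used here hold no RNA, so the cell type labels could not be checked against marker genes. The counts of a pool summed to between 57135700 and 112304623 over all windows, and no pool had the same counts as another. The stromal vinclozolin pools 1 and 2 had higher totals (110076147 and 112304623) than every stromal control pool (57135700 to 73948807), while stromal vinclozolin pool 3 had 71843106. The largest count was 300 in every pool. Within the loci the largest was 96 at Hacd1 and 67 at Arl5b, both in epithelial cells. Levels are given as CPM, the count of a window per 1000000 counts of its pool after TMM scaling within its cell type. TMM scaling corrects the pool totals for differences in composition.

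The promoters of both genes are rich in CpG, the dinucleotide whose cytosine is methylated. They are shown as background on the genes, from RefSeq in the GRCr8 build, as the 300 bases around the start of the gene in lower case with each CpG in capitals. The windows are in Rnor 6.0 and were not placed on these sequences.
Hacd1, minus strand of chr17:82014543-82014842: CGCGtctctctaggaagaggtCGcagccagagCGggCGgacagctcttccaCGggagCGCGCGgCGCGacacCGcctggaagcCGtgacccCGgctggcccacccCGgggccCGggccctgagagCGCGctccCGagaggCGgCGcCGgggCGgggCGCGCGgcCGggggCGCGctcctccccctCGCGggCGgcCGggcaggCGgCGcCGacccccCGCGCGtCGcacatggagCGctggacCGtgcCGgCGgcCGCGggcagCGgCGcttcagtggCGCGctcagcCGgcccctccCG
Arl5b, plus strand of chr17:82864178-82864477: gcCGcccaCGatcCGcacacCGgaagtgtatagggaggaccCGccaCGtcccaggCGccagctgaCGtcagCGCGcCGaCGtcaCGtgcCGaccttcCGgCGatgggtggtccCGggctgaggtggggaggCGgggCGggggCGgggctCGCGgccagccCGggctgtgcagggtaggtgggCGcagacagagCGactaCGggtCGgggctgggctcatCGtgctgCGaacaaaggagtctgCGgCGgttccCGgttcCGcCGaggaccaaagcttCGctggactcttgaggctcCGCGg
The Hacd1 promoter holds 52 CpG sites, and 0.493% of the 33469 promoters of this length in the table hold as many. The Arl5b promoter holds 37, and 4.78% hold as many, where the median promoter has 7. Both genes thus start in a stretch with more CpG sites than most rat promoters have.

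At Hacd1 the vinclozolin lineage had a lower peak of methylation enrichment in epithelial cells, and the difference lay on the side of the peak with the lower coordinates. The window with the smallest p-value started at 81183201, and it had counts of 58, 87 and 62 in the control pools and of 29, 55 and 44 in the vinclozolin pools. In CPM these were 0.983, 0.987 and 0.856 in the control and 0.347, 0.506 and 0.589 in the vinclozolin lineage. All 3 vinclozolin pools were thus below all 3 control pools, with a mean of 0.480 ± 0.123 against 0.942 ± 0.074 (SD, n = 3 pools each). The log2 difference was -0.97 by the edgeR exact test, with a p-value of 2.76e-07 (Benjamini-Hochberg adjusted over all windows, 0.0148). The locus was chosen by the study's own DMR for this contrast. This refit ran the same kind of test on the same pools, so its p-values are no separate support. The edgeR quasi-likelihood test gave an adjusted p of 0.335 at this window. Adjusted p-values under 0.05 were found in 0.00492% of all windows tested in epithelial cells by the exact test and in 0.000165% by the quasi-likelihood test. The dependence of the exact test p-value at 81183201 on single pools is given as a description. Leaving out a pool brought it above 1e-06 for control pool 1 (8.74e-06), control pool 2 (1.30e-04), control pool 3 (1.04e-06), vinclozolin pool 1 (8.30e-06) and vinclozolin pool 2 (2.66e-05), and only without vinclozolin pool 3 was it smaller (2.93e-08). Across the 11518578 windows tested in epithelial cells, 0.00318% had a p-value under 1e-06, 0.00175% with the vinclozolin lineage lower, and 1 of the 283 Hacd1 windows tested did. The locus was chosen by this contrast, so nothing is read from that count.

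The Hacd1 DMR in epithelial cells, taken as the windows with a p-value under 0.1 joined over up to 1000 bp, ran from 81182401 to 81183700 (1300 bp, 7 such windows), and only the window at 81183201 was under 1e-06. This DMR has the same start in the study's list but is slightly shorter there. Its summit, the window with the highest summed count, was the next one at 81183301, where the 6 pools held 411 counts and the level was 0.959 ± 0.119 CPM in the control and 0.751 ± 0.083 CPM in the vinclozolin lineage (SD, n = 3 pools). Of all windows tested in epithelial cells, 0.150% had a summed count as high. The window before 81183201, at 81183101, had 1.305, 0.874 and 0.953 CPM in the control pools and 0.466, 0.643 and 0.789 CPM in the vinclozolin pools, and these did not overlap either. On the other side of the summit the order turned. At 81183501 the counts were 9, 17 and 7 in the control pools and 25, 21 and 20 in the vinclozolin pools, a level of 0.147 ± 0.048 against 0.253 ± 0.054 CPM (SD, n = 3 pools). The first window of the DMR, at 81182401, had counts of 7, 17 and 10 in control and 10, 12 and 2 in vinclozolin lineage pools, which overlapped. Just outside the DMR, the window at 81182301 had counts of 7, 10 and 10 against 11, 10 and 3, and the window at 81183701 had 2, 2 and 1 against 2, 4 and 4. Both sets of counts overlapped.

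**Figure D1:**
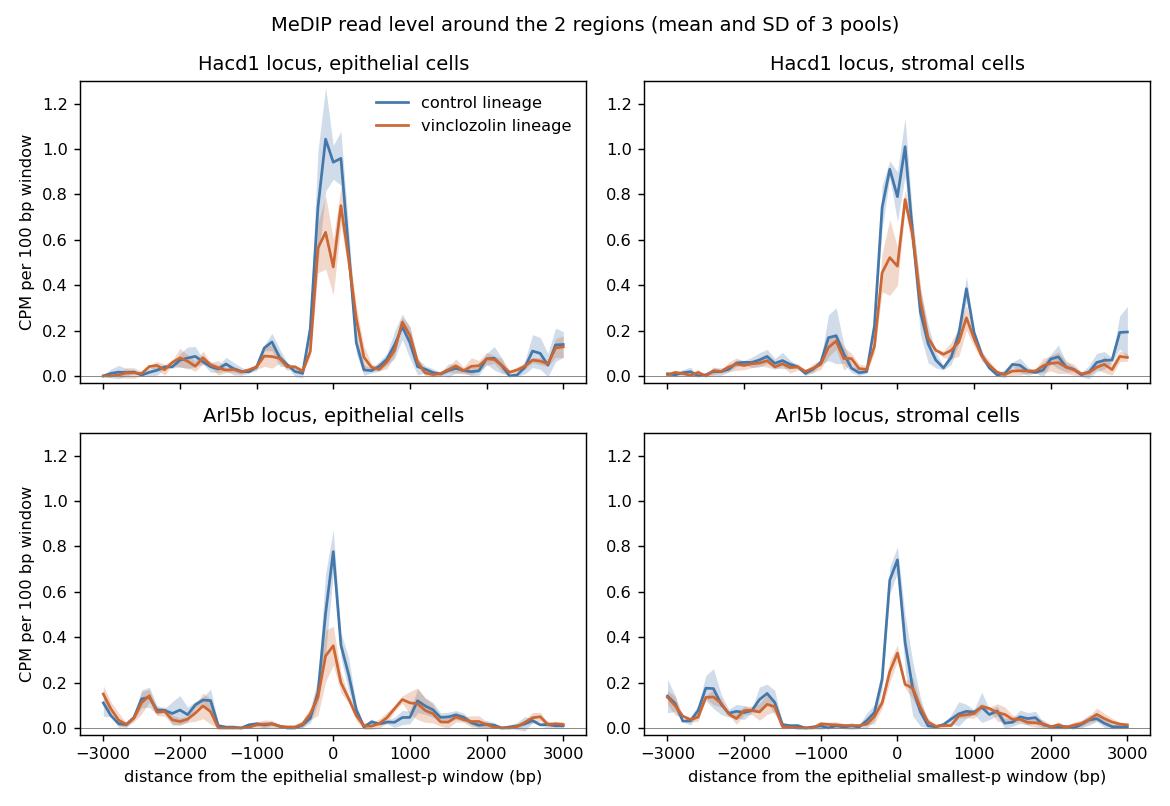
Mean MeDIP read level (CPM per 100 bp window, lines) with the SD of 3 pools (shading) against the distance in bp from the epithelial window with the smallest p-value, for Hacd1 (top) and Arl5b (bottom), in epithelial (left) and stromal cells (right). The vinclozolin line lies below the control line at the main peak in all 4 panels, and the lines run close together away from the peaks.

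In stromal cells, which the ranges did not use, the Hacd1 peak was lower in the vinclozolin lineage in the same windows, but none passed the threshold. At 81183201 the counts were 39, 55 and 64 in the control pools and 62, 52 and 29 in the vinclozolin pools. Scaled to the depth of the pools these were 0.665, 0.842 and 0.864 CPM in the control and 0.573, 0.474 and 0.404 CPM in the vinclozolin lineage. The scaled values did not overlap, with means of 0.790 ± 0.109 and 0.484 ± 0.085 CPM (SD, n = 3 pools). The log2 difference was -0.69 (quasi-likelihood SE 0.17), and the edgeR exact test gave p = 1.00e-04 and a Benjamini-Hochberg adjusted p of 0.0962. This was the smallest stromal p-value of the locus, and 0 of 288 Hacd1 windows tested were under 1e-06 by the exact test, with 0.0136% of the 11670448 stromal windows tested under it (0.0121% lower in vinclozolin). At a Benjamini-Hochberg adjusted p under 0.05 both edgeR tests called 0 of the 288, beside 0.052% of all stromal windows by the exact test and 0.00278% by the quasi-likelihood test, which gave an unadjusted p of 3.99e-04 at 81183201. Unadjusted p-values under 0.05 were found in 27 and 34 of the 288 (9.38% and 11.8%), where 6.89% and 9.32% of all stromal windows tested had one. The adjusted p of this window ranged from 0.022 to 0.687 over the exact test's other scalings, filters and omitted pools. Those fits used every eighth window of the genome plus the loci and the stretch between, and the adjustment was over that smaller set. The windows at 81183001 and 81183101 had log2 differences of -0.66 (exact test p = 1.34e-04) and -0.76 (exact test p = 2.83e-04), and the vinclozolin pools lay below the control pools in both. At the stromal summit, again 81183301 with 426 counts, the level was 1.010 ± 0.128 CPM in the control and 0.778 ± 0.042 CPM in the vinclozolin lineage (SD, n = 3 pools). No stromal DMR was found at Hacd1.

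At Arl5b the vinclozolin lineage had a lower peak in both cell types, at the same window. In epithelial cells the window with the smallest p-value started at 82084701 and had counts of 52, 67 and 50 in the control pools and 38, 31 and 26 in the vinclozolin pools. This gave 0.881, 0.760 and 0.691 CPM in the control and 0.454, 0.285 and 0.348 CPM in the vinclozolin lineage. The pools did not overlap, and the means were 0.777 ± 0.096 and 0.362 ± 0.086 CPM (SD, n = 3 pools). The log2 difference was -1.11 by the edgeR exact test, with a p-value of 1.05e-07 (Benjamini-Hochberg adjusted, 0.00829). The quasi-likelihood test gave an adjusted p of 0.293 there. The exact test p-value rose above 1e-06 without control pool 2 (4.37e-05), vinclozolin pool 2 (3.56e-05) or vinclozolin pool 3 (1.12e-05). One of 185 Arl5b windows tested was under 1e-06 in epithelial cells, the contrast that chose the locus.

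The epithelial Arl5b DMR ran from 82084601 to 82085800 (1200 bp, 7 windows with p under 0.1), and the summit of the locus was the window 82084701 itself, with 264 counts over the 6 pools. The first window, 82084601, had 0.695, 0.477 and 0.345 CPM in control and 0.323, 0.202 and 0.428 CPM in vinclozolin lineage pools, which overlapped. The DMR also took in a low second hump where the order was the other way round. At 82085601 the counts were 1, 7 and 3 in the control pools and 11, 15 and 8 in the vinclozolin pools, a level of 0.046 ± 0.031 against 0.125 ± 0.016 CPM (SD, n = 3 pools), and at 82085501 they were 0, 3 and 3 against 6, 10 and 7. The vinclozolin pools were above the control pools at both of these windows. Just outside the DMR, 82084501 had counts of 9, 18 and 8 against 8, 9 and 17, and 82085801 had 6, 7 and 13 against 13, 15 and 2, both overlapping.

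In stromal cells the Arl5b difference passed the threshold (edgeR exact test p under 1e-06) in 2 adjacent windows of the 186 tested. Of all stromal windows tested, 0.0136% passed it, and 0.0121% did so with the vinclozolin lineage lower, the more frequent direction. At 82084601 the counts were 35, 42 and 53 in the control pools and 29, 31 and 14 in the vinclozolin pools, or 0.597, 0.643 and 0.715 CPM against 0.268, 0.283 and 0.195 CPM. The lowest control pool was above the highest vinclozolin pool, and the means were 0.652 ± 0.060 and 0.249 ± 0.047 CPM (SD, n = 3 pools). The log2 difference was -1.36 (SE 0.20), with a Benjamini-Hochberg adjusted p of 5.12e-06 in the edgeR exact test and of 0.0212 in the edgeR quasi-likelihood test. At 82084701 the stromal levels were 0.767, 0.781 and 0.675 CPM in the control pools and 0.333, 0.365 and 0.293 CPM in the vinclozolin pools, again without overlap. The log2 difference there was -1.13, with a Benjamini-Hochberg adjusted p of 6.13e-05 in the exact test and of 0.036 in the quasi-likelihood test. With any single pool left out, the exact test p at 82084601 stayed between 2.52e-10 and 3.76e-08. Vinclozolin pool 3 had the lowest stromal level at both windows. That the stromal difference of Arl5b existed was known when the locus was taken up, and the stromal and epithelial pools share their rats, so it is not an independent repeat in other animals.

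The stromal DMR at Arl5b ran from 82084501 to 82086200 (1700 bp, 6 windows with p under 0.1, 2 of them under 1e-06). Its extent rested on single low windows. The last one, 82086101, had counts of 1, 3 and 0 in the control pools and 4, 5 and 7 in the vinclozolin pools, and without any one of the 6 pools the DMR was 400 to 1000 bp long. The first one, 82084501, had counts of 10, 14 and 19 against 13, 14 and 6, which did not overlap once scaled. Just outside, 82084401 had counts of 3, 3 and 8 against 7, 8 and 1, and 82086201 had 1, 3 and 1 against 6, 2 and 3. In the second hump of the epithelial profile the stromal pools overlapped, with counts at 82085601 of 3, 4 and 8 against 5, 8 and 4.

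**Figure D2:**
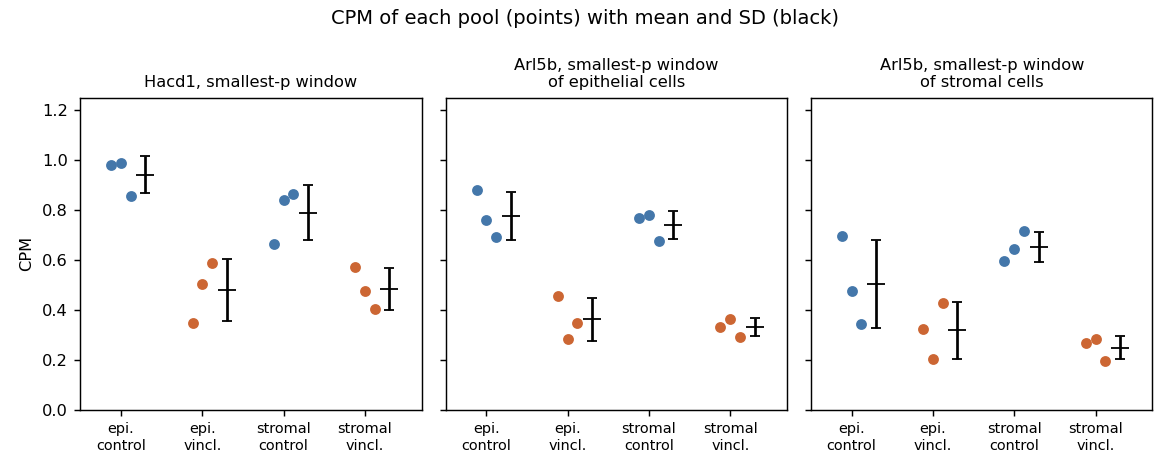
CPM of each pool (points, coloured by lineage) with the mean and SD of 3 pools (black) at the Hacd1 window with the smallest p-value in both cell types (left), and at the Arl5b windows with the smallest p-value in epithelial (middle) and stromal cells (right), all axes starting at 0. Vinclozolin pools lie below control pools in every pair of groups except epithelial cells at the stromal Arl5b window, where 0.428 CPM in a vinclozolin pool exceeds 0.345 CPM in a control pool.

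Averaged over the epithelial DMRs, both loci gave lower levels in the vinclozolin lineage in both cell types. Over the 13 windows of the Hacd1 DMR the mean level was 0.380 ± 0.042 CPM per window in control and 0.281 ± 0.029 in vinclozolin lineage epithelial cells, and 0.389 ± 0.038 against 0.296 ± 0.038 in stromal cells (SD, n = 3 pools), which are vinclozolin to control ratios of 0.740 and 0.761. Over the 12 windows of the Arl5b DMR it was 0.180 ± 0.029 against 0.122 ± 0.014 in epithelial and 0.191 ± 0.029 against 0.105 ± 0.007 in stromal cells, or ratios of 0.680 and 0.553. The pools of the lineages did not overlap in any of these 4 comparisons. Of the 1000 bp bins of the genome, 5.95% in epithelial and 5.72% in stromal cells were lower without overlap. The DMR edges were drawn from the epithelial lineage difference, so the epithelial separation is no test, and the stromal pools share the rats. Each of the stromal comparisons had an exact permutation p of 0.1 (two-sided), which is the smallest that 3 pools against 3 can give. The rest of each locus differed less. Its ratio was 1.09 and 0.986 at Hacd1 and 0.952 and 0.937 at Arl5b in epithelial and stromal cells, and pools overlapped in all but the epithelial Hacd1 flanks, where the vinclozolin lineage was higher with 0.059 ± 0.0005 against 0.054 ± 0.003 CPM per window (SD, n = 3 pools).

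Because counts on the 2 sides of each peak moved apart in epithelial cells, the share of each side was taken, with the sides set after the values had been seen. At Hacd1 the windows from 81182901 to 81183300 held 68.3%, 56.2% and 65.3% of the counts from 81182901 to 81183700 in the control and 45.1%, 55.8% and 56.0% in the vinclozolin epithelial pools. The same share in stromal cells, where the split was made on epithelial values, was 58.6%, 58.2% and 52.9% in the control and 48.8%, 49.2% and 37.9% in the vinclozolin pools. The pools did not overlap in either cell type, and the stromal difference of -11.3 percentage points had an exact permutation p of 0.1 (two-sided), the smallest possible. At Arl5b the windows from 82084501 to 82085000 held 92.4 ± 3.9% of the counts of both humps in control and 74.1 ± 8.4% in vinclozolin epithelial cells (SD, n = 3 pools). In stromal cells these were 89.4 ± 3.5% and 84.4 ± 2.2%, the pools overlapped, and the exact permutation p was 0.2.

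Over the whole of each locus, the shares of windows with a low p-value lay above or below those of the genome by up to 3 percentage points. The shares of the genome were themselves only 4.92% to 6.75%. Of the 413 windows at Hacd1, 283 had a summed count of at least 10 in epithelial cells and 288 in stromal cells and were tested, and of the 413 at Arl5b, 185 and 186. Including the DMRs, 11 Hacd1 windows were lower and 22 higher in vinclozolin epithelial cells at an exact test p under 0.1 (3.89% and 7.77%), where the genome had 4.92% lower and 5.07% higher. In stromal cells 23 were lower and 19 higher (7.99% and 6.60%), where the genome had 5.08% and 6.75%. At Arl5b 11 were lower and 6 higher in epithelial cells (5.95% and 3.24%), and 11 were lower and 7 higher in stromal cells (5.91% and 3.76%). The median log2 difference over the windows tested was 0.10 in epithelial and -0.04 in stromal cells at Hacd1 and -0.09 and -0.03 at Arl5b, beside 0.004 and 0.070 over all windows tested in the genome.

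Windows whose pools did not overlap were counted as well. At Hacd1 18 windows were lower and 22 higher in vinclozolin epithelial cells (6.36% and 7.77%, genome 5.99% and 6.77%), and 27 were lower and 23 higher in stromal cells (9.38% and 7.99%, genome 5.54% and 9.23%). At Arl5b there were 9 lower and 11 higher in epithelial and 11 lower and 12 higher in stromal cells. In bins of 1000 bp, 2 of 40 Hacd1 bins were lower and 4 higher in epithelial cells, where 5.95% and 6.31% of the bins in the genome were. In stromal cells 4 of 40 were lower and 3 higher, where the genome had 5.72% and 9.85%. At Arl5b 5 of 37 bins were lower and 2 higher in epithelial cells, and 2 of 38 were lower and 3 higher in stromal cells. Of a stretch before the Hacd1 DMR, 2 windows were named after their values were seen, and neither passed the threshold in stromal cells. At 81174301 the counts were 4, 8 and 6 in the control and 15, 20 and 12 in the vinclozolin pools of epithelial cells, and 7, 7 and 2 against 14, 20 and 16 in stromal cells (exact test p = 0.016). The lineages did not overlap there in either cell type. At 81174401 the stromal counts were 4, 6 and 4 against 15, 20 and 17 (exact test p = 0.00144), while the epithelial counts of 10, 7 and 6 against 14, 18 and 7 overlapped once scaled.

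**Figure D3:**
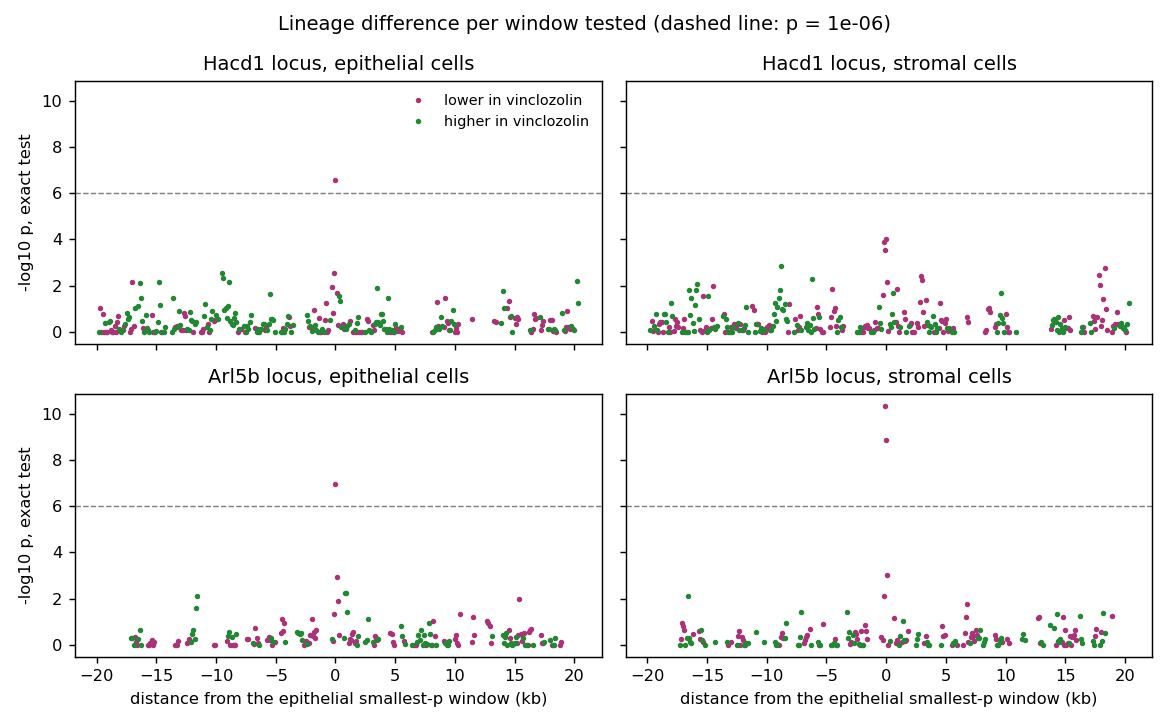
Negative log10 of the exact test p-value of each window tested (points, coloured by direction) against the distance in kb from the epithelial window with the smallest p-value, by locus (rows) and cell type (columns), with a dashed line at p = 1e-06. One window passes the line in epithelial cells at each locus, the contrast that chose them, none in stromal cells at Hacd1 and 2 in stromal cells at Arl5b.

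The comparison of epithelial with stromal cells within a lineage was another contrast than the one that chose the loci, but it used the same epithelial values, so it is not independent of that choice. Within the control lineage 0 of 283 Hacd1 and 0 of 188 Arl5b windows tested differed between the cell types at a Benjamini-Hochberg adjusted p under 0.05 in the edgeR quasi-likelihood test over all 12 pools. The genome had 8.72e-06% of windows called higher and 0.000105% called lower in epithelial cells. An unadjusted p under 0.05 was found in 27 and 20 windows. At Hacd1 6 of them were higher and 21 lower in epithelial cells (2.12% and 7.42%), and at Arl5b 9 and 11 (4.79% and 5.85%), where 3.63% and 3.62% of the windows of the genome were. Within the vinclozolin lineage it was again 0 of 283 and 0 of 188, where the genome had 0.00089% higher and 0.000959% lower. There 16 Hacd1 and 13 Arl5b windows had an unadjusted p under 0.05, 5 higher and 11 lower at Hacd1 (1.77% and 3.89%) and 5 and 8 at Arl5b (2.66% and 4.26%), beside 3.3% and 4.01% in the genome. DESeq2 on chromosome 17 called 0 as well at both loci in both lineages. The smallest p-value of the control lineage at Hacd1 lay in the shoulder of the peak, at 81183601, where epithelial control pools had counts of 2, 4 and 0 and stromal control pools 8, 4 and 17. The log2 difference of epithelial from stromal cells was -2.38 (SE 0.58), with an edgeR quasi-likelihood adjusted p of 0.311 (Benjamini-Hochberg). The smallest at Arl5b, at 82100901, had counts of 6, 8 and 3 in epithelial and 1, 1 and 0 in stromal control pools, with a log2 difference of 2.74 (SE 0.82) and an edgeR adjusted p of 0.420.

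At the peaks themselves the levels of the cell types were near each other. At 82084701 epithelial and stromal cells differed by 0.04 on the log2 scale (SE 0.18) in the control and by 0.09 (SE 0.22) in the vinclozolin lineage, and at 81183201 by 0.22 (SE 0.17) and -0.04 (SE 0.20). Over the DMRs the 6 epithelial pools averaged 0.330 ± 0.063 and the 6 stromal pools 0.343 ± 0.061 CPM per window at Hacd1, and 0.151 ± 0.037 and 0.148 ± 0.050 at Arl5b (SD, n = 6 pools). The difference between pools of the same lineage and number was -0.013 ± 0.065 CPM at Hacd1 and 0.003 ± 0.038 CPM at Arl5b (SD, n = 6 pairs), with exact permutation p-values of 0.656 and 0.844 (two-sided, 0.788 and 0.844 after Benjamini-Hochberg adjustment over 6 comparisons). Which epithelial and stromal pools hold the same rats is not stated beyond the shared numbers. Taking the pools as unpaired gave exact permutation p-values of 0.716 and 0.898. The TMM factors behind these CPM values were set within each cell type. Between the cell types the CPM values were thus scaled by the pool totals alone.

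The lineage difference was also tested for a difference between the cell types, a contrast that the choice of the loci used in part. The edgeR quasi-likelihood test of the interaction called 0 of 283 Hacd1 and 0 of 188 Arl5b windows at a Benjamini-Hochberg adjusted p under 0.05, and 20 and 9 had an unadjusted p under 0.05 (7.07% and 4.79%), where 0% and 5.67% of the windows in the genome did. At 81183201 the epithelial difference was 0.26 lower on the log2 scale than the stromal one (SE 0.26), and at 82084701 they differed by 0.05 (SE 0.28). At 82084601, where the stromal pools were apart and the epithelial pools overlapped, the epithelial difference was higher by 0.69 (SE 0.33, edgeR adjusted p = 0.876). At Hacd1, which had a DMR in epithelial cells alone, no window was called as differing between the cell types in its lineage difference. No window of the genome was called either, so this test could not decide whether the Hacd1 difference was particular to epithelial cells.

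The 860900 bp between the loci held no DMR in epithelial cells and 2 short ones in stromal cells. In the gene table of the GRCr8 build, from which only names and order were taken, 14 genes stand between Hacd1 and Arl5b, of which 6 code for proteins. They are Stam (an adaptor of endosomal sorting), Tmem236, Mrc1 (the mannose receptor of macrophages), Slc39a12 (a zinc transporter), Cacnb2 (a subunit of voltage-gated calcium channels) and Nsun6 (an RNA methyltransferase). The windows were not placed on these genes. Of the 8609 windows, 3903 were tested in epithelial and 3979 in stromal cells, with median log2 differences of 0.01 and 0.04. At an exact test p under 0.1, 170 were lower and 176 higher in vinclozolin epithelial cells (4.36% and 4.51%), and 228 were lower and 255 higher in stromal cells (5.73% and 6.41%), near the shares of the genome given above. The epithelial DMRs of Hacd1 and Arl5b stood 900900 bp apart. Between the ranges 0 of 3903 epithelial windows were under p = 1e-06 by the edgeR exact test, where the genome had 0.00318%, while 187 were under an unadjusted p of 0.05 by that test (4.79%, genome 5.55%) and 266 by the quasi-likelihood test (6.82%, genome 7.68%). In stromal cells 2 of 3979 windows were under 1e-06 by the exact test, where the genome had 0.0136%. Of the same 3979, 298 were under an unadjusted p of 0.05 by the exact test (7.49%, genome 6.89%) and 378 by the quasi-likelihood test (9.50%, genome 9.32%).

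The smallest stromal p-value between the loci lay at 81610501, and the window next to it, 81610401, had the smallest epithelial one. At 81610501 the stromal counts were 1, 0 and 0 in the control pools and 11, 11 and 11 in the vinclozolin pools, and the epithelial counts were 0, 0 and 2 against 8, 9 and 7. The vinclozolin pools were above all control pools in both cell types. The stromal ratio was 22.6 per unit of depth with an exact 95% interval of 3.78 to 918, and the epithelial one 9.86 with an interval of 2.45 to 86.1, which cover counting error only. The stromal window had an edgeR exact test p of 4.65e-07 (Benjamini-Hochberg adjusted, 0.00436) and a quasi-likelihood adjusted p of 0.0975, and its DMR ran from 81610401 to 81610700 (300 bp). At 81610401 the epithelial counts were 5, 6 and 3 against 16, 22 and 19, a log2 difference of 1.72 (exact test p = 1.66e-05, Benjamini-Hochberg adjusted, 0.114). This was the opposite direction to the DMRs of both genes. The other stromal DMR, from 81281701 to 81282100 (400 bp), was lower in the vinclozolin lineage. Its window at 81281901 had 1.057, 1.026 and 0.999 CPM in the control and 0.702, 0.611 and 0.488 CPM in the vinclozolin stromal pools, a log2 difference of -0.74 (edgeR exact test adjusted p = 0.00507, quasi-likelihood adjusted p = 0.143, both Benjamini-Hochberg). The epithelial pools at that window overlapped, with 1.356, 0.976 and 0.718 CPM against 0.777, 0.689 and 0.976 CPM. Leaving out any one of the 6 stromal pools brought the exact test p of 81610501 above 1e-06 (5.77e-06 to 9.50e-05), and leaving out any one except vinclozolin pool 1 (2.30e-07) did so at 81281901 (3.49e-06 to 2.83e-05).

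**Figure D4:**
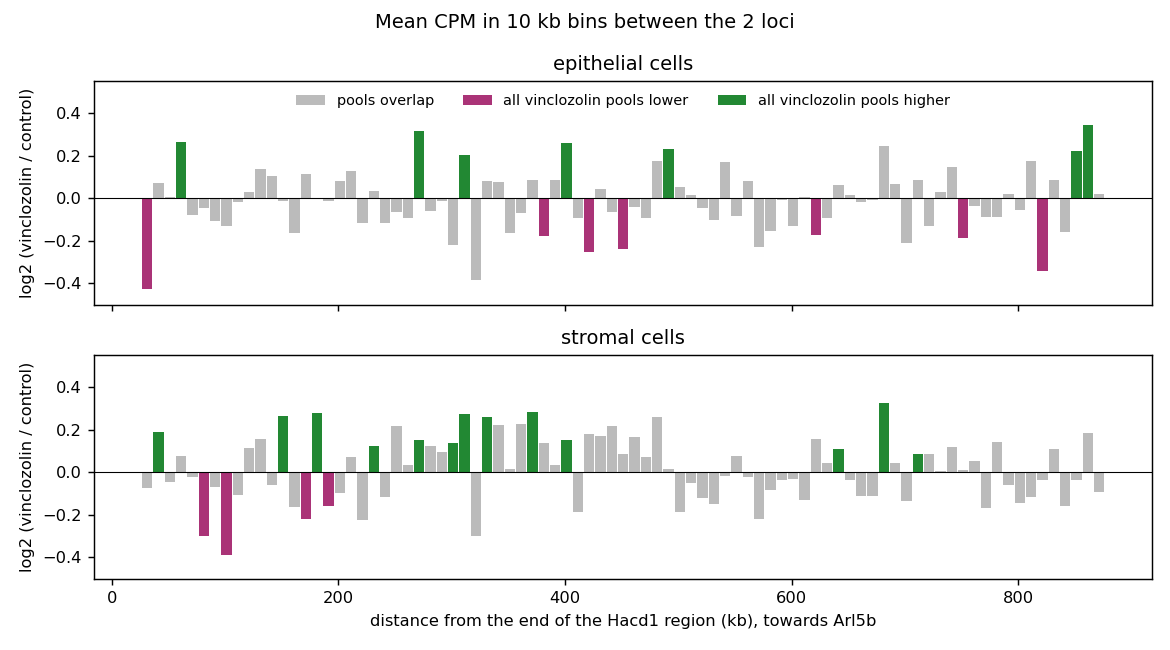
Log2 ratio of vinclozolin to control mean CPM in 85 bins of 10 kb between the loci (bars), against the distance in kb from the end of the Hacd1 DMR, in epithelial (top) and stromal cells (bottom). Bars are coloured where the 3 vinclozolin pools lie all below (7 and 4 bins) or all above (7 and 13 bins) the 3 control pools, and these bins are scattered along the stretch.

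In bins of 10 kb the stretch between the loci showed no lineage difference in one direction. Of 85 bins, 7 were lower and 7 higher in all vinclozolin epithelial pools (8.24% each), where 7.65% and 7.23% of the 10 kb bins of the genome were. In stromal cells 4 were lower and 13 higher (4.71% and 15.3%), where the genome had 6.75% and 15.9%. Without TMM factors the stromal split was 9.41% lower and 7.06% higher, so its direction depended on the scaling. The genome shares without TMM factors were not taken, so nothing about this stretch is read from that split. The median log2 ratio was -0.014 and 0.017 in epithelial and stromal cells against -0.011 and 0.048 in the genome, and single bins ran from -0.42 to 0.34 and from -0.39 to 0.33. The 3 epithelial bins with the largest loss whose pools did not overlap started at 81210001, 82000001 and 81600001 (log2 ratios -0.42, -0.34 and -0.25), and the 3 with the largest gain at 82040001, 81450001 and 81240001 (0.34, 0.31 and 0.26). In stromal cells the largest losses started at 81280001, which holds the short DMR, 81260001 and 81350001 (-0.39, -0.30 and -0.22), and the largest gains at 81860001, 81550001 and 81360001 (0.33, 0.28 and 0.28). The median bin had 0.034 CPM per window in control epithelial cells, beside 0.064 ± 0.004 over the whole Hacd1 and 0.033 ± 0.001 over the whole Arl5b range (SD, n = 3 pools), so the Hacd1 locus was the more enriched of the pair.

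The profile of a DMR over the 12 pools was compared with that of every 1200 bp block of chromosome 17 outside the loci with at least 0.25 times its mean level, by the root mean square difference of centred log2 (CPM + 0.01) values. Hacd1 and Arl5b lay 0.219 apart, and 947 of 8023 blocks were closer to Hacd1 and 138 of 26776 closer to Arl5b than the genes were to each other. The blocks most like Hacd1 started at 42592801, 8684401 and 18430801, with differences of 0.0863, 0.0999 and 0.103 against a median of 0.311 over all blocks. Those most like Arl5b started at 17142001, 36074401 and 70105201, with differences of 0.139, 0.142 and 0.146 against a median of 0.443. The first of these had 0.242 CPM per window in control and 0.178 in vinclozolin epithelial cells, and 0.268 and 0.166 in stromal cells. These likenesses are over 12 pools that share their rats in pairs, and are a description. Both DMRs were chosen by the epithelial lineage difference, which is part of the compared profiles. The named blocks were picked for their likeness, so their lower vinclozolin levels follow from the search. No particular closeness of the genes is therefore read from these counts.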

How the data were processed

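MeDIP-Seq counts of 12 pools were used, 3 for each cell type and lineage. The authors trimmed the reads with Trimmomatic, mapped them to the Rnor 6.0 genome with Bowtie2 at default options, sorted them with SAMtools, and took MEDIPS to count them per 100 bp of the genome. The deposited values were taken as read counts per window and pool. Their maximum of 300 in every pool may be a cap, which the sources used here do not state. Tool versions, the treatment of duplicate reads and the lane of each pool are not given in the sources used here. Neighbouring windows can hold parts of the same fragment and are not independent. The deposited tables also hold RPKM values, lineage means and the authors' own edgeR results per window, and none of these were used.

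The members, the between stretch and all lists were chosen with earlier results of these data known. Lineages were compared within each cell type with the exact test of edgeR 4.0.16 (R 4.3.3), the test that MEDIPS calls, after TMM scaling, on every window of the genome that held 10 or more counts in its 6 pools together. A seeded draw of 400000 windows gave the common dispersion, and tagwise dispersions were fitted in 8 interleaved parts. A window was called at p under 1e-06, and adjusted p-values are Benjamini-Hochberg values taken over the whole set of tested windows. DMR edges followed the study's rule of p under 0.1 within 1000 bp. Cell types and the interaction were tested by edgeR's quasi-likelihood test over all 12 pools, where a window held 20 or more counts in all. On simulated data made from the stromal counts (55379 windows, 200 changed), windows were called at an adjusted p under 0.05. The exact test called 146 of the changed windows and 6 others, and the quasi-likelihood test 137 and 2. All simulated windows had the same dispersion, and only windows with a high summed count were changed. These counts are therefore no rates for p under 1e-06 or for windows of low count. The edgeR p-values set a difference against a spread between pools of rats that was modelled with dispersions shared over windows. The precision at a window is set by its count, from 0 to 96 per pool at the loci.

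Named windows were those with the smallest p-value per locus and cell type, the summits, the first window of each DMR and the windows next to it. Between the loci they were the windows with the smallest p-value or a p-value under 1e-06, and the 3 bins of 10 kb with the largest difference each way whose pools did not overlap. Other windows were named after their values were seen. Lists of ARF-like and fatty acid elongation genes were set up but not used, because no gene table of the Rnor 6.0 build was used here. As alternatives, the quasi-likelihood test was fitted with a replicate block or none, beside DESeq2 1.42.0 on chromosome 17, a scaling without TMM or with DESeq2 size factors, other count minimums and each pool left out. Except for the quasi-likelihood fits and DESeq2, these lineage alternatives were fitted on every eighth window of the genome plus all windows of the loci and between them. The adjusted p-values of such fits were taken over those windows alone.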

Additional observations from a re-analysis of the deposited data

How the results depend on the processing

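Pools carry the numbers 1 to 3 in every group, and no source says that a number marks a shared litter or day between lineages. Over 475007 windows that held 240 or more counts in all, the deviations of control and vinclozolin pools with the same number correlated between -0.121 and 0.028 in epithelial and between -0.016 and 0.031 in stromal cells, so the numbers were not taken as a pairing. With the pool number as a block in the edgeR quasi-likelihood test, the log2 differences were -0.97 at 81183201 and -1.13 at 82084701 in epithelial cells and -1.36 at 82084601 in stromal cells (adjusted p = 0.656), none of which passed the threshold, and 0 windows of the genome were called in either cell type. Epithelial and stromal pools with the same number correlated between -0.098 and 0.005, and the block by lineage and number left all cell type and interaction counts at 0 for both loci, as did every other setting tried. The epithelial log2 differences also missed the threshold by the quasi-likelihood test without a block (-0.97 at Hacd1 and -1.11 at Arl5b) and by DESeq2 on chromosome 17 (-0.97 and -1.10), and at Hacd1 with no count filter (-0.91). Leaving out a pool gave -1.11 to -0.79 at Hacd1 and -1.29 to -0.93 at Arl5b in epithelial cells, and -0.86 to -0.63 and -1.48 to -1.27 in stromal cells. No lineage difference changed direction at the windows for which alternatives were run, which were 81183201 in both cell types, 82084701 in epithelial cells and 82084601, 81281901 and 81610501 in stromal cells. These windows had been taken for their small p-values, and the pools of the lineages did not overlap at any of them. Leaving out a pool was thus no test of the direction. The stromal call at Arl5b was kept under every setting except the block. With touching windows of p under 0.05 the DMRs were 300 bp (Hacd1, epithelial), 400 bp (Arl5b, epithelial) and 400 bp (Arl5b, stromal), and with a minimum of 20 counts the last was also 400 bp. Without a pool the stromal Arl5b DMR was 400 to 1000 bp, and the epithelial ones were 800 bp at Hacd1, where 5 of 6 omissions left no DMR, and 1100 bp at Arl5b, where 3 did. Between the loci, bins of 5 kb gave 4.71% lower and 5.29% higher in epithelial and 4.12% lower and 10.0% higher in stromal cells. For the 10 kb bins there, scaling without TMM gave 9.41% lower and 7.06% higher in stromal cells. Leaving out a pool, which makes a lack of overlap more frequent by construction, gave 9.41 to 15.3% lower and 9.41 to 12.9% higher in epithelial and 7.06 to 11.8% lower and 16.5 to 24.7% higher in stromal cells. For the 1 kb bins of the loci it gave 11.7 to 14.3% lower and 9.21 to 15.6% higher in epithelial and 11.7 to 15.4% lower and 10.4 to 14.1% higher in stromal cells. Genome shares were not taken for these settings, so these bin shares are not compared with the genome. The cause of the other shifts was not tested.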
